A study of Mus musculus with 28 samples.

Results

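The genes described here mark the endothelial cells that line the liver sinusoids, together with the signals those cells release. They are 10 mouse genes: 4 angiocrine ligands (Wnt2, Wnt9b, Rspo3 and Bmp2) and 6 cell markers (Stab1, Stab2, Lyve1, Kdr, Pecam1 and Clec4g). They were found as the array probes whose RefSeq transcript belongs to 1 of these genes, which gave 11 of 55681 probes, Kdr having 2. Total liver RNA of 28 male mice was hybridised to 1-colour Agilent whole mouse arrays, with 1 array per animal. CD-1 mice received diet with no addition or with 1500 ppm phenobarbital (PB), an antiepileptic drug that activates the nuclear receptor CAR, over 7 days (n = 4 per diet). The hCAR/hPXR mice, which carry humanized CAR and pregnane X receptor (PXR), received 0 or 1000 ppm over 7 days (n = 7 per diet). The third strain, C3H/HeNCrlCrlj (C3H from here on), ate diet with 0 or 500 ppm over 27 weeks (n = 3 per diet). Each C3H animal, controls included, had first been given 90 mg/kg diethylnitrosamine, a liver carcinogen, by a single injection into the peritoneum. Dose, duration, strain and carcinogen therefore differ together between the 3 comparisons. The labels used here give neither the animals' ages nor the background strain of the hCAR/hPXR mice, and name the sample only as liver.

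Sinusoidal endothelial cells are fenestrated, lack a continuous basement membrane, and clear waste molecules from blood through scavenger receptors. Those around the central vein secrete Wnt2 and Wnt9b, which bind Frizzled receptors on neighbouring hepatocytes and keep beta-catenin active there, and Rspo3, which strengthens the same signal by removing the ubiquitin ligases that degrade those receptors. Bmp2 from the same endothelium signals to hepatocytes to make hepcidin, the hormone that limits iron uptake. Stab1 and Stab2 encode the stabilin scavenger receptors, Clec4g a C-type lectin of sinusoidal cells, Lyve1 a hyaluronan receptor shared with lymphatic vessels, Kdr the receptor VEGFR2, and Pecam1 the junction protein CD31 of most endothelium.

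Values are levels on the log2 scale relative to the 75th percentile of each array, so a level of 0 equals that percentile. A gene was tested where the scanner software marked it well above background on every array of at least 1 of the groups compared, and was called where its adjusted p was under 0.05 (limma with Benjamini-Hochberg adjustment over all genes tested). The exposure was visible in every strain: Cyp2b10, the main CAR target cytochrome P450, was higher with PB by 101-fold in CD-1 mice, by 22.4-fold in the humanized strain and by 53.3-fold in C3H mice. The arrays of CD-1 mice were dimmer at the top of their range, with a 99th percentile of the signal between 3932 and 6339 scanner units against 21120 or more on every other array. All 4 CD-1 control arrays lay on 1 slide and all 4 PB arrays on another, so in CD-1 mice slide and diet cannot be told apart. In hCAR/hPXR mice 1 slide held the 7 controls and PB animal 1, and the other held PB animals 2 to 7. All 6 C3H arrays shared 1 slide. The liver could be recognised in each group, since all 10 hepatocyte markers listed, such as albumin, were tested in each strain. Whole liver was used, so fewer endothelial cells and less RNA per endothelial cell cannot be told apart anywhere below.

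Without PB, Wnt2 was higher in CD-1 mice than in the other strains. In CD-1 controls its levels were -0.70, -0.34, -0.46 and -0.17, and it was well above background on 4 of 4 arrays. In hCAR/hPXR controls they ran from -3.64 through a median of -3.05 to -2.74, well above background on 6 of 7 arrays. In C3H controls they were -3.29, -3.01 and -3.26, and Wnt2 was well above background on 0 of 3 arrays. The CD-1 values did not overlap those of the other strains. The level was 6.75-fold lower in hCAR/hPXR than in CD-1 controls (difference -2.76 ± 0.18 SE, adjusted p = 1.69e-09 by limma). Against C3H controls the CD-1 level was 6.28-fold higher by a bound. For each C3H array it takes the higher of the measured level and the lowest level well above background of any probe. A probe can lie above that lowest level without being marked, as Wnt9b did on the array of CD-1 control 3. The bound is therefore not a detection limit for a given probe. The processed signal itself, before any scaling, had a median of 50.3 scanner units in CD-1, 21.2 in hCAR/hPXR and 8.02 in C3H controls. Dim probes in general sat higher on the scaled axis in CD-1 arrays. The median deposited value of an array was -1.74 to -1.30 in CD-1, -3.31 to -2.86 in hCAR/hPXR and -3.66 to -3.45 in C3H controls. The part of this in the Wnt2 difference was not tested.

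Wnt9b was not detected in CD-1 controls and was detected in the other strains. In CD-1 controls it was well above background on 0 of 4 arrays, with measured levels of -2.69, -2.91, -1.87 and -2.61. It was well above background on 7 of 7 arrays in hCAR/hPXR controls, where levels ran from -2.60 through -2.01 to -1.52, and on 3 of 3 in C3H controls, at -1.76, -2.31 and -2.25. By the bound used for Wnt2, the hCAR/hPXR mean was 1.33-fold and the C3H mean 1.24-fold that of CD-1 controls. These bounds compare group means and carry no sampling error. The measured ranges overlapped. The 75th percentile of the processed signal was 37.49 to 71.45 scanner units on CD-1 control arrays. It was 161.7 to 239.5 on hCAR/hPXR and 67.07 to 81.91 on C3H control arrays. The part of array brightness in the detection of Wnt9b was not tested. The fitted difference between hCAR/hPXR and CD-1 controls, 0.51 ± 0.22, set a detected group against an undetected one (adjusted p = 0.0426, limma), and it did not pass the threshold when CD-1 control 1, 2 or 4 or hCAR/hPXR control 2, 3, 4, 5 or 7 was left out (0.38 to 0.52). C3H controls differed from CD-1 controls by 0.41 ± 0.27, which was not called (adjusted p = 0.167, limma). That difference was called after quantile normalization (2.42, 2.24e-06), with normexp (0.53, 1.09e-05) and without CD-1 control 3 (0.63, 0.0307). Its size therefore depended on the processing.

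The 2 Wnt genes are shown with the 250 bases before their transcription start, because CD-1 and C3H controls differed in which of them was detected, while hCAR/hPXR controls had both. Promoter sequences came from the RefSeq table for the build GRCm38.p6, which held 6 of the 10 genes. Wnt2 lies on the minus strand at chr6:18030446-18030695 and Wnt9b on the minus strand at chr11:103749822-103750071. Capitals mark matches, on either strand, to GATAA (read by GATA factors), AGGAAG (read by ETS factors) or CTTTGA (read by TCF/LEF factors of the Wnt pathway).
Wnt2: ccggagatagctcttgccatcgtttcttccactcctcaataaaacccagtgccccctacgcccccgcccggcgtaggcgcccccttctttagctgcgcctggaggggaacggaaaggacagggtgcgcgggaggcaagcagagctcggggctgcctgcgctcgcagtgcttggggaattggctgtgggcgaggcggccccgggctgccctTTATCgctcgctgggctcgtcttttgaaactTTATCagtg
Wnt9b: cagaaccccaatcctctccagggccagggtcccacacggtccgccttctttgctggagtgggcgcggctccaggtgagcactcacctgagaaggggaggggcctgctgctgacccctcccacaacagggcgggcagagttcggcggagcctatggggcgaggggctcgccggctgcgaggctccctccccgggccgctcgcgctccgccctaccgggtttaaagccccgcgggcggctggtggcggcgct
Wnt2 held 2 matches to GATAA, both on the opposite strand, with their first bases 40 and 9 bases before the start. Wnt9b held none of the 3 motifs. Of 32851 promoter windows of this length, 22.6% held GATAA, 29.5% AGGAAG and 13.8% CTTTGA. These are letter matches in 1 reference sequence and not measured binding sites.

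Rspo3 and Bmp2 were well above background on all 28 arrays. Rspo3 levels in CD-1 controls were -0.32, 0.05, -0.05 and 0.17. They were 0.24 to 0.79 with a median of 0.53 in hCAR/hPXR controls, and 0.51, 0.68 and 0.77 in C3H controls. CD-1 controls lay below all others, by 0.58 ± 0.14 (SE) against hCAR/hPXR (adjusted p = 0.00143, limma) and 0.69 ± 0.17 against C3H controls (0.0015). The hCAR/hPXR and C3H levels did not differ beyond their spread (C3H minus hCAR/hPXR 0.12, 95% interval -0.21 to 0.45). Bmp2 was lowest in CD-1 (1.78, 0.88, 1.73 and 1.21), intermediate in hCAR/hPXR (1.89 to 2.44, median 2.07) and highest in C3H controls (3.18, 2.89 and 3.03). Each step passed the test, at 0.72 ± 0.18 (adjusted p = 0.00142) and 0.92 ± 0.19 (0.00104), but the first turned to -0.35 after quantile normalization and to 0 after normexp background correction. The difference of C3H from CD-1 controls, 1.63 ± 0.21, shrank to 0.21 after quantile normalization (adjusted p = 0.260).

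The 3 scavenger and lectin markers had one pattern across strains. Stab1, Stab2 and Clec4g were lowest in CD-1 controls (means 0.77, 2.19 and 3.22), with no overlap with hCAR/hPXR (2.47, 4.35 and 5.55) or C3H controls (2.96, 4.44 and 5.91). The CD-1 to hCAR/hPXR differences were 1.71 ± 0.13, 2.16 ± 0.15 and 2.33 ± 0.16, with adjusted p at or below 6.24e-09 (limma). CD-1 arrays were dimmer at the top of their range, and the part of this in these differences was not tested. Such a low level was not particular to these markers. The summed level of the Kupffer cell markers listed had a median of 36.4 in CD-1, 162 in hCAR/hPXR and 123 in C3H controls. Stellate cell genes gave 55.4, 121 and 185. The hepatocyte and lymphocyte lists were not lowest in CD-1 controls. Between C3H and hCAR/hPXR controls only Stab1 passed the test among these 3, at 0.48 ± 0.14 (0.00907), and it did not after quantile normalization (0.16, 0.411). Stab2 differed by 0.10 (95% interval -0.25 to 0.44), a value that turned to -0.38 with normexp, and Clec4g by 0.36 (-0.02 to 0.74). Their upstream sequences are shown because their PB changes also shared one sign within each strain, which in hCAR/hPXR mice did not hold with the slide block described below (Stab1 0.12, Stab2 -0.02, Clec4g -0.26). They lie on the minus strand at chr14:31168642-31168891, chr10:87007943-87008192 and chr8:3720652-3720901, with capitals as above.
Stab1: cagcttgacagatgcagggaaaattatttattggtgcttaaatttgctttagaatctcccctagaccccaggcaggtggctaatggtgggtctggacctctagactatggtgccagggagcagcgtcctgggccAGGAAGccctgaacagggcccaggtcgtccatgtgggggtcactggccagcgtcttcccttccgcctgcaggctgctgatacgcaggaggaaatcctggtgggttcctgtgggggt
Stab2: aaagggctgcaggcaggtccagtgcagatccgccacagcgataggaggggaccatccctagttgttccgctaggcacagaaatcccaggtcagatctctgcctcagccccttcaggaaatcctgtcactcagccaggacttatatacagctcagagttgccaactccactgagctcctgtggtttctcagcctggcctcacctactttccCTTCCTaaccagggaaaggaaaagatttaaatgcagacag
Clec4g: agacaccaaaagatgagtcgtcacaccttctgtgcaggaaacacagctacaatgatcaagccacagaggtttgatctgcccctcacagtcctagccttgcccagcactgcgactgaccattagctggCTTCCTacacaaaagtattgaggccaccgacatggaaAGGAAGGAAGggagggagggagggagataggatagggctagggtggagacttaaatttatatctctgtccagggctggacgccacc
Each held AGGAAG, once in Stab1 and Stab2 and 3 times in Clec4g, where 2 of the matches overlap, beside 29.5% of all promoter windows with a match. The window of Kdr, the remaining marker in the table, held none. None of these 4 held GATAA or CTTTGA.

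Lyve1 was also lowest in CD-1 controls, and Pecam1 was not. Lyve1 levels there were -1.18, -1.57, -1.02 and -2.06, against -0.13 to 0.41 (median 0.07) in hCAR/hPXR and -0.42, 0.03 and -0.38 in C3H controls. Pecam1 was highest in CD-1 controls (0.97, 0.36, 0.72 and 0.27), 3.1-fold above hCAR/hPXR (-1.31 to -0.91, median -1.05) and 4.02-fold above C3H controls (-1.27, -1.40 and -1.62). Before scaling, its processed signal had a median of 87.4 scanner units in CD-1, 92.7 in hCAR/hPXR and 31.0 in C3H controls. The excess of CD-1 over hCAR/hPXR controls was therefore seen only after scaling. The difference between hCAR/hPXR and C3H controls did not pass the test for either gene (adjusted p = 0.155 for Lyve1 and 0.0667 for Pecam1). The Kdr probes contradicted each other. By the brighter probe CD-1 controls were higher than hCAR/hPXR controls by 1.77 ± 0.18, and by the second probe they were lower by 2.31 ± 0.18, each past the test. No strain order is therefore given for Kdr. Such differences were common. Between hCAR/hPXR and CD-1 controls 88.8% of all genes tested were called (51.1% higher, 37.6% lower), between C3H and CD-1 controls 89.2% (51% higher, 38.2% lower), and between C3H and hCAR/hPXR controls 50.9% (31.3% higher, 19.6% lower). Of the 10 genes, 10 of 10, 9 of 10 and 3 of 9 tested were called, so the first 2 counts are near the share of all genes.

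**Figure D1:**
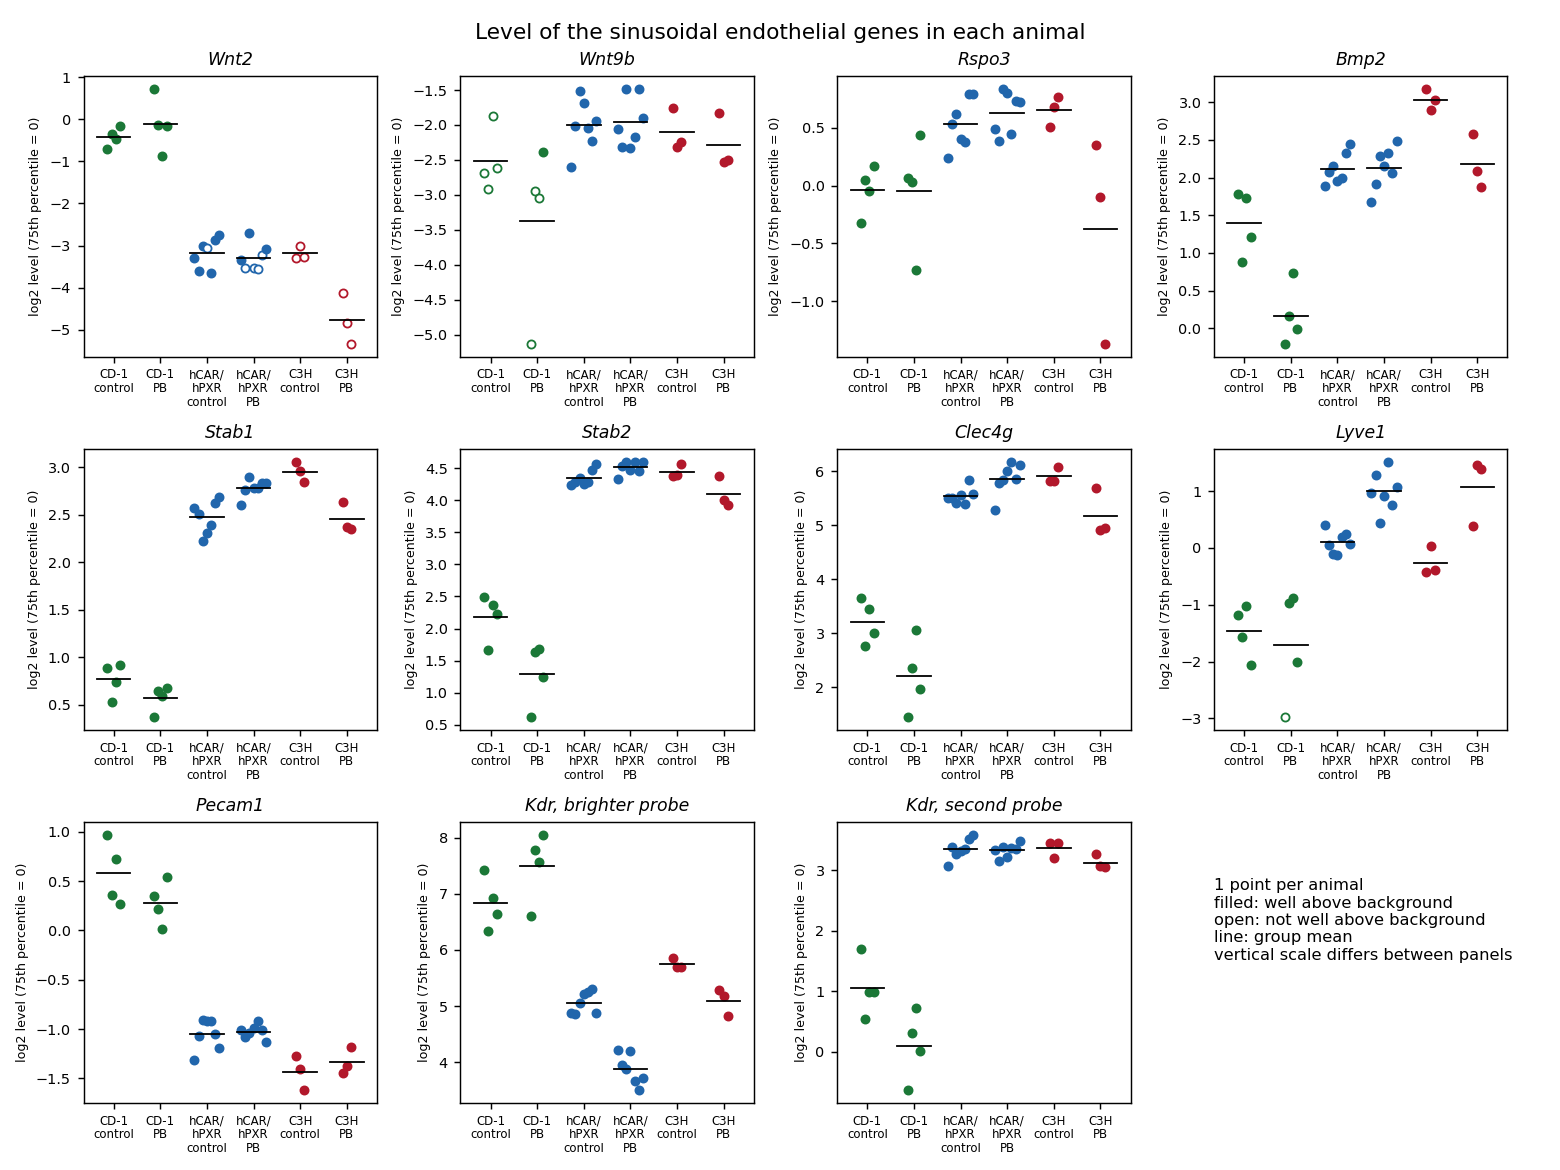
Level of each gene in each animal (vertical axis, log2 relative to the array's 75th percentile) for the 6 groups, with PB for phenobarbital. Points are animals, lines are group means, and open points were not well above background. Wnt2 was well above background throughout in CD-1 mice only. Lyve1 with PB lay above every control in hCAR/hPXR and C3H mice, as did 12.4% and 17.3% of all genes tested.

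In CD-1 mice with 7 days of PB, Bmp2 fell, and none of the other genes tested passed the threshold. Bmp2 levels were 1.78, 0.88, 1.73 and 1.21 in controls and -0.21, 0.16, 0.73 and -0.01 with PB. The groups did not overlap, which held for 18.6% of all genes tested (6.63% higher, 12% lower). Bmp2 fell 2.35-fold (log2 change -1.23 ± 0.31 SE, adjusted p = 0.0287, limma). It was 1 of 9 genes tested here, and 7.98% of all genes tested were called in this comparison. Across all genes 1.85% were called higher and 6.13% lower, so that 23.1% of the calls were higher, a share of 33.7% after quantile normalization and 39.6% after normexp. The Bmp2 call ended when control 1 (-1.10), control 3 (-1.12), PB animal 1 (-1.11), PB animal 2 (-1.23) or PB animal 4 (-1.17) was left out, with adjusted p between 0.0539 and 0.1, and when dim probes were not filtered (0.0647).

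The Wnt signals of CD-1 liver showed no call. With PB, Wnt2 was at 0.73, -0.14, -0.86 and -0.16, a spread wide enough to enclose the controls (change 0.31 ± 0.33, adjusted p = 0.565, limma). Rspo3 was at 0.07, 0.03, -0.73 and 0.44, a change of -0.01 with a 95% interval from -0.65 to 0.64. Wnt9b was well above background in 1 of 4 PB animals and was not tested. Stab2 (-0.90 ± 0.31, adjusted p = 0.0938) and Clec4g (-1.0 ± 0.36, 0.0984) were lower on average without passing the threshold, and their groups overlapped. Clec4g ran from 1.45 to 3.07 with PB against 2.76 to 3.65 in controls, and passed the threshold without PB animal 3 (-1.29, adjusted p = 0.044). Stab1, Lyve1 and Pecam1 changed by -0.20, -0.25 and -0.30, with adjusted p between 0.492 and 0.735 in limma. With normexp and quantile normalization, Stab1 (-0.91, adjusted p = 0.0237) and Stab2 (-0.88, 0.0389) were called lower and Kdr by its brighter probe higher (0.51, 0.0168). The Kdr probes pointed in opposite directions, at 0.67 ± 0.35 (0.243) and -0.95 ± 0.35 (0.104). The median change of the 9 genes tested was -0.25, beside -0.04 over all genes.

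In hCAR/hPXR mice 4 of the markers and none of the 3 ligands tested were called, before slide was taken into account. Lyve1 and, slightly, Stab1 and Clec4g rose, and Kdr fell by its brighter probe. These 4 calls among 9 genes tested, 3 of them higher, stand beside 58.1% of all genes called, 35% higher and 23.2% lower, so the share among these genes is below that of all genes. Lyve1 levels were -0.13 to 0.41 (median 0.07) in controls and 0.44 to 1.52 (median 0.97) with PB. Every PB animal lay above every control, as for 12.4% of all genes tested here, a 1.85-fold rise (0.89 ± 0.14, adjusted p = 0.000168, limma). Stab1 went from 2.23 to 2.69 (median 2.51) to 2.60 to 2.91 (median 2.78), with overlap, a rise of 0.31 ± 0.08 (0.00484). Clec4g went from 5.40 to 5.84 (median 5.51) to 5.29 to 6.18 (median 5.86), a rise of 0.32 ± 0.12 (0.0346). Stab2 changed by 0.16 ± 0.07 (0.0664) and Pecam1 by 0.03 (95% interval -0.13 to 0.19).

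The brighter Kdr probe gave 4.85 to 5.30 (median 5.06) in controls and 3.50 to 4.22 (median 3.87) with PB, with no overlap. Groups did not overlap for 20.5% of all genes tested here (12.4% higher, 8.17% lower). This is a 2.28-fold fall (-1.19 ± 0.12, adjusted p = 7.9e-06, limma). The second Kdr probe gave 3.07 to 3.59 (median 3.35) and 3.16 to 3.49 (median 3.36), a change of -0.03 with a 95% interval from -0.21 to 0.15. The interval of the second probe excludes the fall of the first, so whether Kdr RNA fell is not settled by these arrays.

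None of the 3 ligands tested was called in hCAR/hPXR mice. Wnt9b levels were -2.60 to -1.52 (median -2.01) in controls and -2.34 to -1.48 (median -2.06) with PB. Its change was 0.04 with a 95% interval from -0.34 to 0.42. Rspo3 changed by 0.09 (-0.14 to 0.32) and Bmp2 by 0.02 (-0.25 to 0.28). Wnt2 was well above background on 6 of 7 control arrays and 3 of 7 PB arrays, at medians of -3.05 and -3.35, and was not tested.

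Slide and diet nearly coincided in hCAR/hPXR mice, so these calls cannot be separated from slide. With slide as a block, the diet effect rests on PB animal 1 against the controls of its slide. Such a fit has too little precision to show whether a call holds, so only its values are given. Lyve1 was then 0.87 ± 0.30 higher and Kdr 0.84 ± 0.23 lower by the brighter probe. Without the block these were 0.89 ± 0.14 and 1.19 ± 0.12. Bmp2 was 0.44 lower and Stab1 0.12 higher with the block, and Clec4g turned to -0.26. After quantile normalization Stab1 (0.13, adjusted p = 0.0997, limma) and Clec4g (0.11, 0.404) were no longer called. Clec4g also lost its call when any 1 of 8 of the 14 animals was left out, namely controls 1, 2, 3 and 5 and PB animals 4 to 7 (0.27 to 0.32).

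The counts of other sinusoidal and endothelial genes called in hCAR/hPXR mice stand beside 58.1% of all genes called, 35% higher and 23.2% lower, and are near that share. Of 14 further sinusoidal genes tested 7 were higher and 0 lower (median change 0.29, beside 0.13 over all genes), among them Gpr182, a receptor of sinusoidal cells, at 0.67 ± 0.10 (adjusted p = 0.000108, limma) and Flt4, the receptor VEGFR3, at 0.40 ± 0.09 (0.00173). Of 15 pan-endothelial genes 7 were higher, such as the secreted factor Egfl7 (0.47 ± 0.08, 0.000314) and the junction protein Cldn5 (0.58 ± 0.11, 0.000561). Of 8 tested genes of continuous capillaries and large vessels 4 were higher and 1 lower, and Ly6c1, an antigen of capillary endothelium, was 2.32-fold higher. Kupffer cell markers moved too: 6 of 10 were higher and 0 lower (median 0.41), and their summed level relative to the 75th percentile ranged from 135 to 182 in controls and from 147 to 293 with PB. None of those 10 was undetected, and their part in the endothelial changes was not tested. After quantile normalization 2 of the 14 sinusoidal genes were higher and 1 lower. The slide block rests on PB animal 1 and cannot show whether these calls hold, so they cannot be separated from slide.

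In C3H mice, 27 weeks of PB after diethylnitrosamine lowered Bmp2 and raised Lyve1, and no Wnt signal of the endothelium was higher. Of 9 genes tested 1 was called higher and 2 lower, where 14.7% of all genes were called, 7.38% higher and 7.3% lower. Bmp2 was at 3.18, 2.89 and 3.03 in controls and at 2.58, 2.09 and 1.88 with PB. Every PB animal lay below every control, a 1.8-fold fall (-0.85 ± 0.20, adjusted p = 0.0408, limma). With 3 animals per diet, PB groups lay wholly below controls for 24.3% of all genes tested and wholly above for 17.3%. Lyve1 was at -0.42, 0.03 and -0.38 in controls and at 0.39, 1.46 and 1.39 with PB. It rose 2.52-fold without overlap (1.34 ± 0.31, adjusted p = 0.0383). Kdr by its brighter probe went from 5.85, 5.69 and 5.70 to 5.28, 5.17 and 4.83, a fall of 0.65 ± 0.15 (0.0396). The second probe gave -0.24 ± 0.13 (0.241).

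Rspo3 in C3H mice was at 0.51, 0.68 and 0.77 in controls and at 0.35, -0.10 and -1.37 with PB. The groups did not overlap, as for 41.6% of all genes tested here (17.3% higher, 24.3% lower), but PB animal 3 lay far below the others and the change of -1.03 ± 0.42 did not pass the threshold (adjusted p = 0.136, limma). Wnt9b was at -1.76, -2.31 and -2.25 against -1.83, -2.53 and -2.5, a change of -0.18 with a 95% interval from -0.77 to 0.41. Wnt2 was not well above background on any of the 6 arrays.

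Stab1, Stab2 and Clec4g in C3H liver were lower with PB on average without a call. Stab1 went from 3.06, 2.96 and 2.85 to 2.64, 2.37 and 2.35 (-0.50 ± 0.14, adjusted p = 0.0544, limma), and Clec4g from 5.82, 5.82 and 6.09 to 5.69, 4.91 and 4.95 (-0.72 ± 0.24, 0.0838). Neither overlapped. Stab2 changed by -0.34 ± 0.16 (0.178) and Pecam1 by 0.09 (95% interval -0.26 to 0.44). The median over the 9 genes was -0.50, beside -0.05 over all genes. PB animal 1 lay closest to the controls for Rspo3, Bmp2, Stab1, Stab2, Clec4g, Kdr and Lyve1. Without it 7 of the genes were called, adding Rspo3 (-1.39, adjusted p = 0.0399), Stab1 (-0.60, 0.0229), Stab2 (-0.48, 0.0432) and Clec4g (-0.98, 0.00722). Without any other single animal, that is control 1, 2 or 3 or PB animal 2 or 3, none was called, with Bmp2 between -0.92 and -0.70, Lyve1 between 1.15 and 1.48 and Kdr between -0.69 and -0.52 (adjusted p between 0.0763 and 0.13). Without the filter on dim probes none of the 3 was called (Bmp2 0.132, Lyve1 0.112, Kdr 0.144), and Kdr was not called after quantile normalization (-0.58, 0.053). Other settings added calls. Stab1 was called lower with normexp (-0.42, adjusted p = 0.0425, limma). With a spread shared over all arrays Stab1 (-0.50, 0.0196) and Rspo3 (-1.03, 0.0151) were called lower, and Kdr was not called (0.118).

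**Figure D2:**
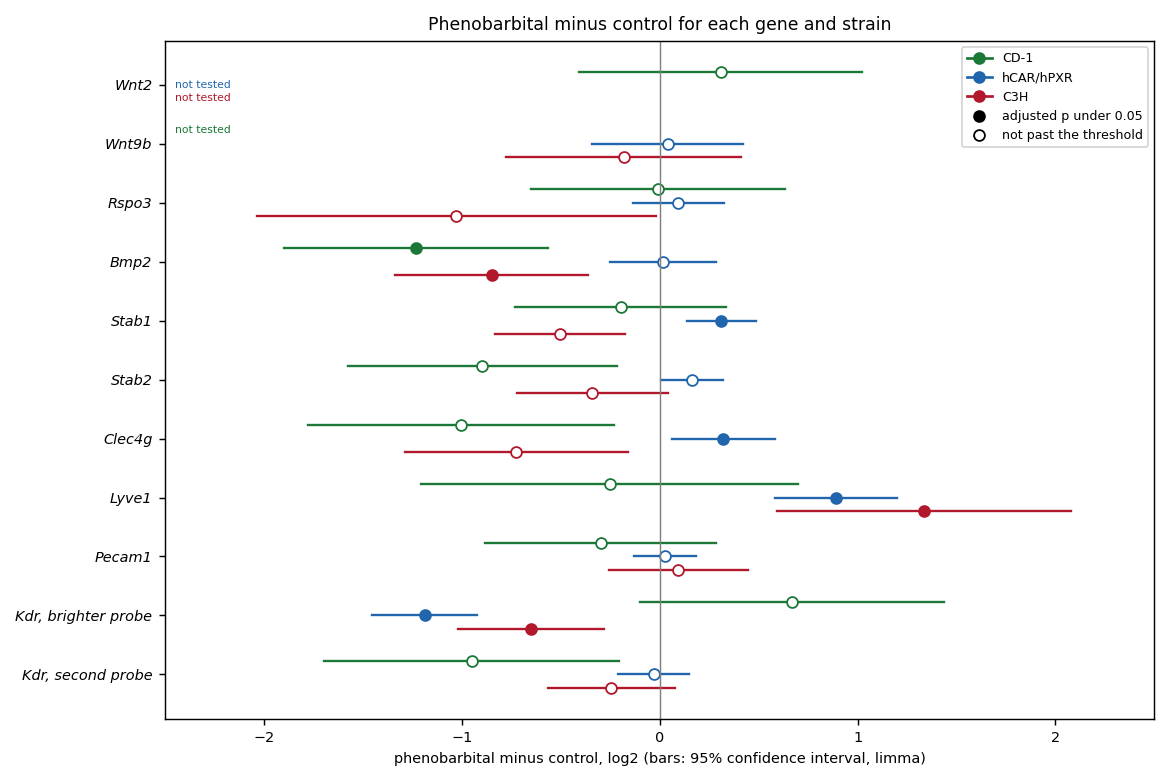
Phenobarbital minus control (horizontal axis, log2) for each gene, coloured by strain, with 95% confidence intervals from limma. Filled points passed an adjusted p of 0.05. Bmp2 was lower in CD-1 (-1.23) and C3H (-0.85) and at 0.02 in hCAR/hPXR mice, and the Kdr probes disagreed in CD-1 and hCAR/hPXR mice.

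The PB changes were compared between strains in 1 limma fit of all 28 arrays. Between hCAR/hPXR and CD-1 mice the change differed for 6 of 8 genes tested, where 40.2% of all genes were called (29.9% higher, 10.3% lower). Bmp2 (difference 1.25 ± 0.27, adjusted p = 0.000955), Stab2 (1.06 ± 0.23, 0.00112), Clec4g (1.32 ± 0.32, 0.00209), Lyve1 (1.14 ± 0.41, 0.0297) and Stab1 (0.51 ± 0.16, 0.0145) all differed toward a higher value in hCAR/hPXR mice. Kdr differed by -1.86 ± 0.30 with its brighter probe and by 0.92 ± 0.27 with the other, each called. Between C3H and CD-1 mice Lyve1 (1.59 ± 0.50, 0.0280) and Kdr by its brighter probe (-1.32 ± 0.36, 0.0127; second probe 0.71, 0.127) differed, against 18.8% of all genes (13.6% higher, 5.13% lower). The Bmp2 falls in these 2 strains differed by 0.38 with a 95% interval from -0.29 to 1.05. Between C3H and hCAR/hPXR mice Rspo3 (-1.12 ± 0.35, 0.0412) and Stab1 (-0.82 ± 0.18, 0.00437) differed, against 9.42% of all genes (3.67% higher, 5.75% lower). The 2 rises of Lyve1 differed by 0.44 (-0.49 to 1.38).

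Several of these differences between strains rested on single animals. Lyve1 in hCAR/hPXR minus CD-1 mice lost its call without CD-1 control 1 (1.05), control 3 (1.0), PB animal 1 (0.72) or PB animal 4 (1.04). Lyve1 in C3H minus CD-1 mice lost it without CD-1 control 3 (1.44) or PB animal 1 (1.16) or 4 (1.49), or C3H control 1 (1.5) or 3 (1.53) or PB animal 2 (1.4) or 3 (1.43). Rspo3 in C3H minus hCAR/hPXR mice lost it on leaving out any 1 of 14 of the 20 animals, to -0.62 without C3H PB animal 3. Quantile normalization also changed these calls. After it, neither Rspo3 (-0.82, adjusted p = 0.376, limma) nor Stab1 (-0.59, 0.071) differed past the threshold between C3H and hCAR/hPXR mice. Between hCAR/hPXR and CD-1 mice Stab1 (0.34, 0.103) and Lyve1 (0.96, 0.158) no longer passed it. Between C3H and CD-1 mice Lyve1 (1.26, 0.159) did not pass it and Bmp2 (1.21, 0.0194) did. Slide and diet cannot be told apart in the CD-1 arm of these differences. In the hCAR/hPXR arm PB animals 2 to 7 lay on another slide than the controls, and this fit held no slide term. With the slide block the hCAR/hPXR change went from 0.31 to 0.12 for Stab1 and from 0.32 to -0.26 for Clec4g. It went from 0.16 to -0.02 for Stab2, 0.02 to -0.44 for Bmp2 and 0.09 to -0.04 for Rspo3. Lyve1 went only from 0.89 to 0.87.

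Ligands and markers were set side by side as each animal's mean deviation from the control mean, over the genes tested in that strain and without a test. In C3H mice with PB the 3 ligands averaged -0.16, -0.71 and -1.19, while the 6 markers averaged -0.07, -0.14 and -0.18. The ligands therefore lay further below control than the marker mean in each of these 3 animals, although the marker mean joins the Lyve1 rise with falls elsewhere. In CD-1 mice with PB the ligands averaged -0.12, -0.30, -0.60 and -0.22 and the markers -0.95, -0.08, -0.01 and -0.28. In hCAR/hPXR mice with PB the ligands ran from -0.22 to 0.34 and the markers from -0.01 to 0.22. All these marker means used the brighter Kdr probe. With the second Kdr probe the markers averaged -1.2, -0.36, -0.19 and -0.65 in CD-1 mice with PB. They then ran from 0.12 to 0.46 in hCAR/hPXR mice with PB and averaged -0.01, -0.09 and -0.09 in C3H mice with PB.

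The hepatocyte genes listed as beta-catenin targets moved much further than the ligands in C3H liver, and what raised them was not tested. Of 10 hepatocyte beta-catenin targets 8 were higher and 0 lower with PB, where 7.38% of all genes were called higher and 7.3% lower. The targets had a median change of 2.40. They included glutamine synthetase (Glul, 9.05-fold, adjusted p = 0.00277, limma), the ammonium transporter Rhbg (13.5-fold, 0.00282), Cyp1a2 (4.10-fold, 0.0036) and the transcription factor Sp5 (17.4-fold, 0.00646). Of 10 tested Wnt inhibitors and feedback genes 6 were higher and 0 lower, among them the secreted Wnt binder Wif1 (48.3-fold, 0.000335, well above background in 1 of 3 controls) and the feedback regulator Nkd1 (27.9-fold, 0.00239). Axin2 and Apcdd1 were well above background on 0 of 3 control and 3 of 3 PB arrays, 3.70-fold and 3.42-fold higher by the bound used for Wnt2. Lgr5, the R-spondin receptor, was 9.25-fold higher (adjusted p = 0.00797, limma), and Fzd10, a Wnt receptor, 29.2-fold by the same bound (0.00092). Wls, which carries Wnt proteins to the cell surface, changed by -0.14 ± 0.15 (0.537), and Porcn, which lipidates them, fell 2.61-fold (0.0348). Leaving out 1 animal gave 6 to 9 targets and 4 to 8 inhibitors called higher, while Porcn lost its call without any control or PB animal 2.

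Of 20 further Wnt and R-spondin genes, 5 could be tested in C3H mice. Wnt5a rose 4.77-fold (adjusted p = 0.027, limma) and Wnt6, well above background on 0 of 3 control arrays, 3.49-fold by the bound used for Wnt2 (0.00797). The Wnt5a call ended on leaving out any animal except PB animal 1. The other 3 were not called, and 12 of the 20 were not well above background on any C3H array.

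In the 7-day comparisons the targets took other values beside ligands that were not called higher. In hCAR/hPXR mice 6 of 10 targets were higher and 0 lower (median 0.66), where 58.1% of all genes were called and 35% were higher, with Lect2 at 0.80 ± 0.11 and Rhbg at 0.75 ± 0.11, while Lgr5 fell 1.81-fold. The slide block rests on PB animal 1 and cannot show whether these calls hold, so they cannot be separated from slide. In CD-1 mice 3 of 9 targets were lower and 0 higher: Glul (3.67-fold, adjusted p = 0.00876, limma), the glutamate transporter Slc1a2 (4.07-fold, 0.00487) and the ornithine aminotransferase Oat (2.41-fold, 0.0109). Across all genes tested in CD-1 mice 6.13% were called lower and 1.85% higher.

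**Figure D3:**
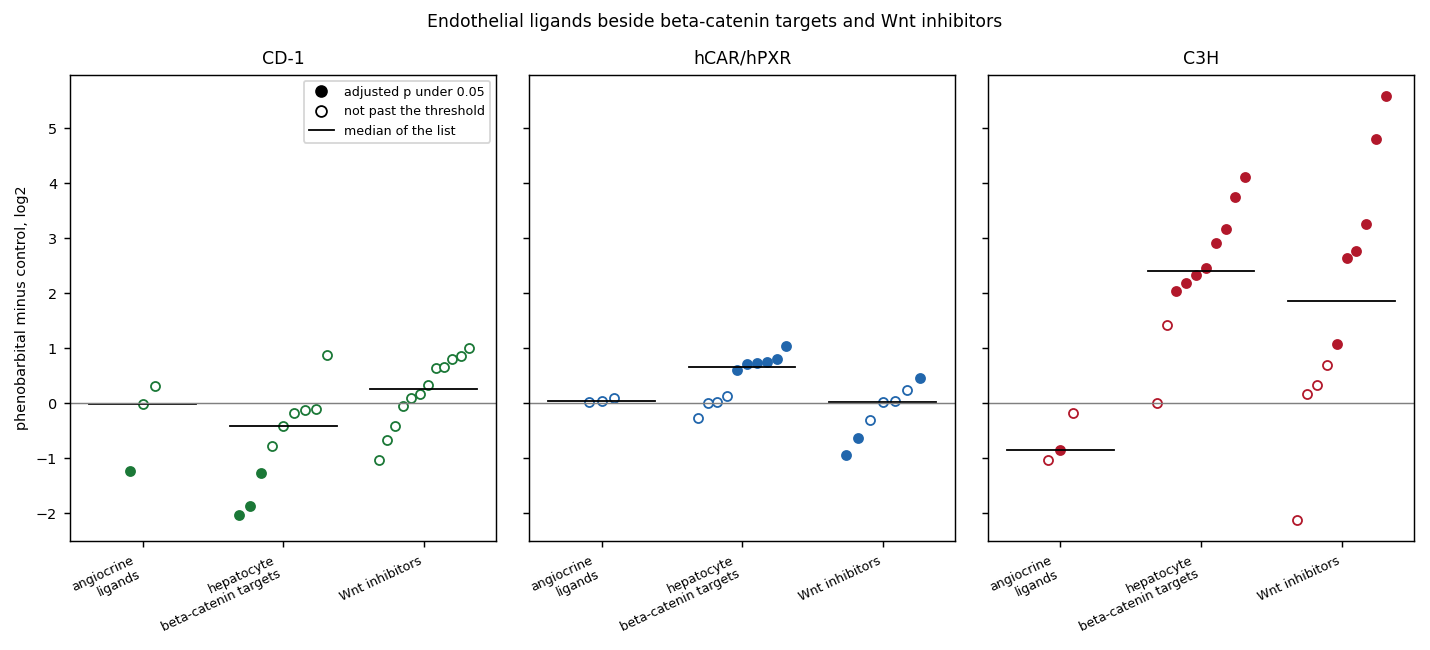
Phenobarbital minus control (vertical axis, log2) of tested endothelial ligands, hepatocyte beta-catenin targets and Wnt inhibitors in each strain. Points are genes, filled where adjusted p was under 0.05, and lines are list medians. In C3H mice the targets had a median of 2.40 while no ligand lay above 0.

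Bmp2 was set beside the genes it acts on. In CD-1 mice, where Bmp2 fell, hepcidin (Hamp) was at 4.63 ± 0.68 (SD, n = 4) in controls and 3.26 ± 1.21 with PB (change -1.38 ± 0.53 SE, adjusted p = 0.119, limma). Nog, the extracellular BMP antagonist noggin, fell 7.68-fold (6.75e-05). In C3H mice Hamp was at 7.18 and 4.15 on average (-3.03 ± 1.28, adjusted p = 0.144, limma), Id1, a direct BMP target, changed by 1.01 ± 0.30 (0.0687), and Bmp7, another ligand, rose 5.30-fold (0.00456). In hCAR/hPXR mice, where Bmp2 changed by 0.02, Hamp changed by -0.18 ± 0.57 (0.804) and its paralogue Hamp2 rose 5.52-fold (1.64e-05). Bmp6, the partner ligand from the same endothelium, changed by -0.15 ± 0.20 in hCAR/hPXR and 0.03 ± 0.20 in C3H mice, neither called. In CD-1 mice neither Bmp6 nor Id1 was well above background on any array. Called genes of this list numbered 1 of 23 tested in CD-1 mice, 9 of 28 in the humanized strain and 6 of 28 in C3H mice, where 7.98%, 58.1% and 14.7% of all genes were called.

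Beside the rise of Lyve1 in C3H mice, some genes of other endothelium rose and a few sinusoidal genes fell. Cd34, a sialomucin of continuous capillaries that healthy sinusoids largely lack, rose 5.0-fold (adjusted p = 0.0151, limma). The arterial ligand Efnb2 rose 2.61-fold (0.0084), the adhesion molecule Vcam1 2.17-fold (0.024) and the junction protein Esam 2.62-fold (0.0102). Of 8 vessel genes tested 3 were higher and 0 lower, and of 14 pan-endothelial genes 1 was higher and 1, the phosphatase Ptprb, lower (1.53-fold, 0.0475), where 7.38% of all genes were higher and 7.3% lower. The Ptprb call ended without any animal except PB animal 1. Among 14 further sinusoidal genes 0 were higher and 3 lower: Plxnc1 (2.21-fold, 0.0211), the nuclease Dnase1l3 (1.63-fold, 0.0421) and Adam23 (1.68-fold, 0.0481). Leaving out 1 animal gave 0 to 5 lower sinusoidal genes, and each of these 3 lost its call without any animal except PB animal 1. The Cd34 call ended without any control or PB animal 2, the Vcam1 call without control 1 or 3 or PB animal 2 or 3, and the Esam call without control 3. Efnb2, Dll4 and Nrg1 were called in each of the 6 cases. Of the angiocrine and angiogenic factors tested, 5 of 18 were higher, with the Notch ligand Dll4 at 7.73-fold (0.00436), Nrg1 at 9.16-fold (0.00763), Klf4 at 3.33-fold (0.0163) and Esm1, a marker of angiogenic tip cells, at 29.1-fold (0.0237), and 2 were lower. The Klf4 call ended without control 1 (1.62), control 3 (1.63) or PB animal 2 (1.5), and the Esm1 call without control 1 (4.48), control 3 (4.33), PB animal 2 (4.48) or PB animal 3 (4.5). Hepatocyte markers were lower in 7 of 10, such as Fga (2.57-fold, 0.0159) and Alb (1.64-fold, 0.0279), and their summed level ranged from 13401 to 14890 in controls and from 8438 to 10182 with PB. The Fga and Alb calls ended without any control or PB animal 2, and Alb also without PB animal 3. The part of hepatocyte RNA in the endothelial values was not tested.

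In CD-1 mice 0 of 13 further sinusoidal genes passed the threshold in limma (median change -0.37), and 1 of 10 pan-endothelial genes did: Ptprb, the endothelial phosphatase, fell 2.39-fold (adjusted p = 0.0281). Beside these counts, 7.98% of all genes tested were called, 1.85% higher and 6.13% lower. Vegfa, the hepatocyte-derived ligand of the Kdr receptor, fell 2.21-fold (0.0308), and Cd34 rose 2.42-fold (0.0353). All 3 lost their call without control 1 or 3 or PB animal 1, 2 or 4, and Vegfa also without control 4.

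**Figure D4:**
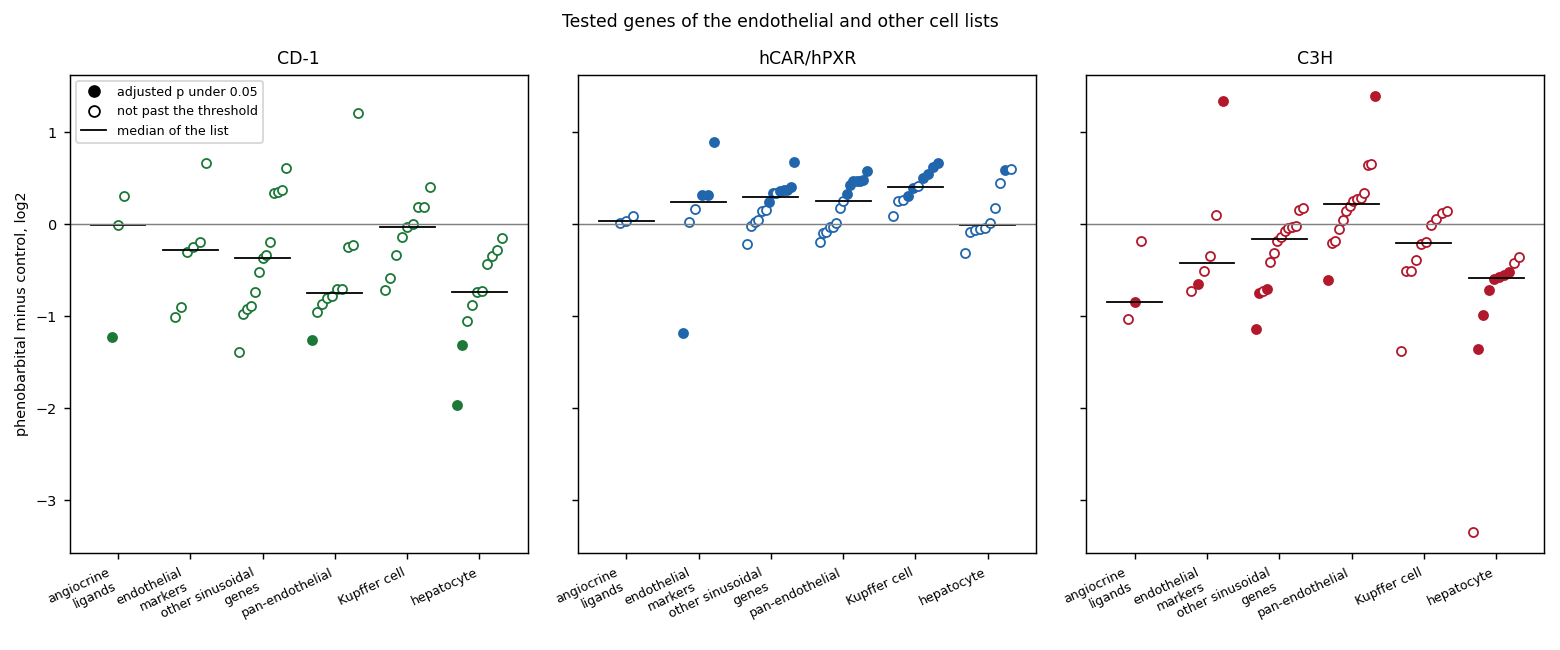
Phenobarbital minus control (vertical axis, log2) of the tested genes of each list in each strain: ligands, the 6 endothelial markers, other sinusoidal genes, pan-endothelial genes, Kupffer cell and hepatocyte markers. Points are genes, filled where adjusted p was under 0.05, and lines are medians. The hCAR/hPXR medians of the endothelial and Kupffer lists lie between 0.24 and 0.41, and the C3H hepatocyte median at -0.58.

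How the genes varied together within groups was described over the 28 arrays after each group's mean was removed, for the 7 genes well above background on all arrays. Stab2 followed the mean of the other 6 most closely (r = 0.82), then Bmp2 (0.74), Clec4g (0.65), Stab1 (0.60) and Kdr by its brighter probe (0.52). Rspo3 (0.05) and Pecam1 (0.02) did not follow it. Among 7982 other named genes on all arrays, the 5 most like the mean of the 7 were Serpinf1 (r = 0.94), Dhrs3 (0.91), Daglb (0.90), Zfp467 (0.90) and Hsd11b1 (0.90). These points share array brightness and scaling, and no p is given.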

How the data were processed

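Livers of 28 mice in 6 groups were measured on 1 array each. Intensity values came from Agilent Feature Extraction 10.7.3.1, per the file headers, as its processed signal. The deposited value table holds log2 values, which equal the log2 processed signal minus a constant per array. Here spots marked as outliers were left out (109 to 430 per array), spots of a probe were averaged, and each array's 75th percentile over 55681 non-control probes was subtracted. Probes were named through their RefSeq transcripts with the GRCm38.p6 gene table (26582 probes, 20145 symbols), and a gene with several probes took the one with the highest mean over 28 arrays. PB was compared with control within each strain, and changes and control levels between strains, with limma 3.58.1 in R 4.3.3 (two-sided moderated tests), tested on simulated data. The labels call the samples biological replicates and give no pairing between diets.

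Alternatives covered normalization, background correction, the deposited table, the filter on dim probes, the choice of probe, outlier spots, replicate and slide blocks, a spread shared over all arrays, and leaving out each animal. The members and gene lists were chosen with earlier results of these data known. From each list, up to 4 called genes per strain with the smallest adjusted p could be named and Hamp, Id1, Bmp6 and Wls, which were not called, were named after their values were seen. The number of arrays limits the precision. No spot was saturated.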

Additional observations from a re-analysis of the deposited data

Results flagged for a closer look

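Within groups of 4 and of 7 animals, 2 of 44 sets of values for these probes held an animal far from the others, where chance gives about 1 in 20. Both concern Clec4g in hCAR/hPXR mice: control animal 6 was highest at 5.84, and PB animal 1, the PB animal on the slide of the controls, was lowest at 5.29.

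PB changes that differed between strains past an adjusted p of 0.05 (interaction terms in limma) were as follows. The change in hCAR/hPXR minus that in CD-1 mice was 1.25 for Bmp2, 0.51 for Stab1, 1.06 for Stab2, 1.14 for Lyve1, 1.32 for Clec4g, -1.86 for the brighter Kdr probe and 0.92 for the second. The change in C3H minus that in CD-1 mice was 1.59 for Lyve1 and -1.32 for the brighter Kdr probe. The change in C3H minus that in hCAR/hPXR mice was -1.12 for Rspo3 and -0.82 for Stab1.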

How the results depend on the processing

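The number of the 10 genes called with PB moved with the processing. In CD-1 mice it was 1, and became 4 with normexp correction, 0 without a filter on dim probes, 4 with a spread shared over all arrays, and 0 to 2 when 1 animal was left out. In hCAR/hPXR mice it was 4, and became 2 after quantile normalization and 3 to 5 when 1 animal was left out. The slide block gives no usable count there, because its diet effect rests on PB animal 1. In C3H mice it was 3, and became 0 without the filter, which tests more genes, and 0 to 7 when 1 animal was left out. The count of PB changes differing between C3H and hCAR/hPXR mice (2) became 0 after quantile normalization and 1 to 4 with 1 animal left out; between C3H and CD-1 mice (2) it became 1 with the mean of all probes, 1 with the second Kdr probe, and 1 to 3 with 1 animal left out. The control level count between C3H and hCAR/hPXR mice (3) became 1 after quantile normalization.

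With the replicate number as a block, 0 genes were called in CD-1, 4 in hCAR/hPXR and 1 in C3H mice (Lyve1), and all genes called fell from 1901 to 1160 in CD-1 and from 2682 to 1543 in C3H mice. Over all genes, CD-1 calls became 3748 with normexp and 6187 with the shared spread, and C3H calls fell to 612 without the filter. Same-numbered animals correlated between -0.45 and 0.06 in CD-1, between -0.13 and 0.27 in hCAR/hPXR and between 0.04 and 0.18 in C3H mice, where 3 of 3 matched their own number best.

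Signs reversed as follows. With the slide block, hCAR/hPXR changes turned to -0.26 for Clec4g, -0.01 for Ctsl, -0.03 for C1qb, -0.22 for Cd5l, 0 for Clec4f and -0.10 for Fgb. Control levels of hCAR/hPXR minus CD-1 turned to -0.35 (quantile) and 0 (normexp) for Bmp2, and to 0.27 (mean of probes) and 2.31 (second probe) for Kdr; C3H minus CD-1 turned to 0.62 and 2.33 for Kdr. C3H minus hCAR/hPXR turned to -0.38 for Stab2 with normexp. With the second Kdr probe, the PB change differed by 0.92 (hCAR/hPXR minus CD-1) and 0.71 (C3H minus CD-1). The cause was not tested. The second Kdr probe and the alternatives for counts were chosen after seeing the data. A slide block was not run in CD-1, where each slide holds 1 diet, or in C3H mice, which have 1 slide. Dim signal limits Wnt2 and Wnt9b.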
